A study of Mus musculus with 6 samples.

Results

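Apln, Aplnr, Esm1, Angpt2, Angpt1, Tek, Tie1, Kdr, Flt1 and Vegfa encode ligands and receptors of sprouting vessels. These 10 genes were picked by name out of 21899 in the counts, and they were partly chosen by their RN against RC values, since Apln, Esm1 and Angpt2 were already known to be much lower in RN. All RN against RC values of the 10 genes are therefore given as a description. The counts held all 10, and all 10 were among the 14956 genes that passed the filter on low counts.

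The data were bulk RNA sequencing of thalamus tissue from 6 male wild-type C57BL/6J mice, which were bought at 8 to 10 weeks of age. The tissue was taken from beneath the hippocampus in a coronal section of each mouse. All 6 received a single dose of 50 Gy to the left thalamic region, 2 µL of virus 2 weeks later, and had tissue taken 6 weeks after irradiation. The 3 RC mice (radiation + control virus) received AAV9 GFAP104::tdTomato, a red fluorescent reporter, and the 3 RN mice (radiation + NeuroD1 virus) received AAV9 GFAP104::mND1-tdTomato, which adds the mouse neuronal transcription factor NeuroD1. The GFAP104 promoter joins an EF1α enhancer to an astrocyte promoter, so neither virus was directed at vessels. The control mice thus carried the irradiation, the injection and the reporter too. Normal mice were not analysed here, so no value below says how far a level lay from that of healthy thalamus.

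New vessels grow as sprouts led by an endothelial tip cell, which follows a gradient of VEGF. VEGFA acts on endothelial cells through VEGFR2 (Kdr), while VEGFR1 (Flt1) binds VEGFA tightly and signals weakly, so that it limits the amount free to act on VEGFR2. Angiopoietin-1 (Angpt1), made by mural cells and other cells around the endothelium, activates the receptor Tie2 (Tek) and keeps vessels quiet. Angiopoietin-2 (Angpt2), made by endothelial cells themselves, competes with it in many settings, and Tie1 is a receptor that pairs with Tie2. Apelin (Apln) and the proteoglycan endocan (Esm1) are used as markers of tip cells, and Aplnr is the receptor of apelin. Injury and low oxygen are known to raise several of these vessel genes.

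The sequences upstream of Apln and Esm1, the called member and the member with the largest fold change, are shown so that both tip-cell markers can be compared base by base. They are the 250 bases before the start in the promoter table of RefSeq, on build GRCm38.p6 and 5′ to 3′ along the gene. The Apln window lies at chrX:48034854-48035103 on the minus strand and the Esm1 window at chr13:113209409-113209658 on the plus strand. Capitals mark matches on either strand to 3 short motifs, ACGTG (the core of the hypoxia response element), CAGATG (an E-box of the kind NeuroD1 binds) and AGGAAG (a core bound by ETS factors). No marked matches overlapped.
Apln: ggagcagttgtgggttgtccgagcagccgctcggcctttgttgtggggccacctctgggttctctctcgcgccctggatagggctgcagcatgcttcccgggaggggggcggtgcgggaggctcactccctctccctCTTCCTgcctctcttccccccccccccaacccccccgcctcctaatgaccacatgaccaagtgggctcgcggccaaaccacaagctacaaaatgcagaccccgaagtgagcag
Esm1: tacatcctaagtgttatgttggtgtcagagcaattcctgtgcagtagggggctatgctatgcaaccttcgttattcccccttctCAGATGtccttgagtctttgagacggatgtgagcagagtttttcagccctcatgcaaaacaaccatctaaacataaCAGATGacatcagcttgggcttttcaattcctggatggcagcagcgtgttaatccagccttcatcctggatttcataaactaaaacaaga

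The Apln window was 65.2% G and C and held 1 match to AGGAAG, on the opposite strand, 113 to 108 bases before the start. The Esm1 window was 44.0% G and C and held 2 matches to CAGATG, at 166 to 161 and at 90 to 85 bases before the start. Neither held ACGTG. Of the 32851 windows of the same length in the table, 16.6% held ACGTG, 14.4% CAGATG and 29.5% AGGAAG. Among the other members in the table, Tie1 had 1 match to CAGATG and 1 to AGGAAG, Kdr 1 to CAGATG, Flt1 2 to AGGAAG, Vegfa 1 to ACGTG at 1 of its starts, and Tek none. A match is a string of letters, and binding was not measured. The table held windows for 7 of the 10 genes.

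Library totals lay between 16561663 and 18657015 counts. Neurod1, which only the RN virus delivers, gave 84 to 91 reads per RC library and 910 to 1711 per RN library, as the labels say. The defining thalamic genes Slc17a6, Tcf7l2, Rora, Prkcd, Lef1, Synpo2 and Ntng1 were present in all 6 libraries, with overlapping groups. All 7 nevertheless had negative log2 fold changes in RN against RC, with a median of -0.53, beside 0.00372 for all tested genes. Genes of the choroid plexus, which lines parts of the ventricles and secretes cerebrospinal fluid, stood apart: 12 of 12 were tested, and their summed level ran from 650.6 to 10829 CPM (counts relative to library size after TMM scaling) in RC and from 355.4 to 396.6 CPM in RN. The defining marker Ttr was at 44222, 127609 and 4491 counts in RC replicates 1 to 3, and at 415 to 1642 counts in RN.

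Among the 10 genes, Apln, Esm1, Angpt2, Kdr and Tie1 were lower in every RN mouse than in any RC mouse, and no member was higher in this way. Such a separation downward occurred in 8.12% of all tested genes. Flt1, Tek and Angpt1 differed by less than the spread between mice, and Vegfa and Aplnr had lower means with overlapping groups. In bulk tissue, fewer cells of a type and less RNA per cell cannot be told apart. A lower value here thus does not separate fewer cells that make a transcript from less of it in each. Which cells made each transcript, Apln included, was not measured. A gene was called at a Benjamini-Hochberg adjusted p under 0.05 in edgeR's quasi-likelihood test with at least a 2-fold difference. Of the 10 genes 1, Apln, was called lower, against 0.0134% of all tested genes. No member was called higher, none had a higher value at an unadjusted p under 0.05, and DESeq2's Wald test called none higher either.

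**Figure D1:**
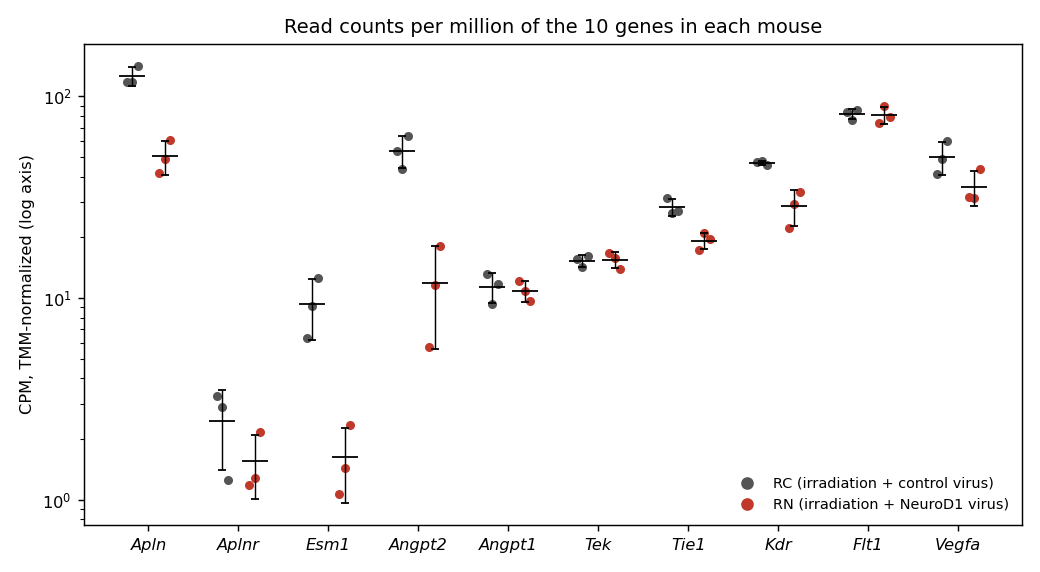
TMM-normalized CPM of the 10 genes (log axis) in each of 3 RC mice (grey) and 3 RN mice (red), with the group mean and SD in black. The RN points of Apln, Esm1, Angpt2, Tie1 and Kdr lie below all RC points, whereas those of Flt1, Tek and Angpt1 lie among them.

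Apln, which encodes the precursor of the secreted peptide apelin, was at 117.8, 117.6 and 141.5 CPM in RC replicates 1, 2 and 3, and at 41.6, 48.9 and 60.6 CPM in RN replicates 1, 2 and 3. The highest RN mouse thus lay well below the lowest RC mouse. Apln fell to 0.401 of its RC level (log2 fold change -1.32, standard error (SE) 0.148, edgeR adjusted p = 0.0383). The SE is taken from edgeR's quasi-likelihood F statistic. Of 6 fits that each left out a mouse, 3 kept the call, and the adjusted p from edgeR ran from 0.0300 to 0.190. The call was lost without RC replicate 1 (adjusted p = 0.0752), without RC replicate 2 (0.0920) and without RN replicate 2 (0.190), while the log2 fold change stayed between -1.47 and -1.20.

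Aplnr, the G protein-coupled receptor of apelin, was scarce. The RC mice had 58, 48 and 22 counts and the RN mice 20, 24 and 39, so RC replicate 3 lay at the level of the lower RN mice. Its log2 fold change was -0.66 with an SE of 0.433 (edgeR adjusted p = 0.634). It turned positive when the mean level of the endothelial genes (0.0168, SE 0.753) or of the choroid plexus genes (0.38, SE 0.615) entered the fit as a covariate. Both values were smaller than their SE, and both covariates themselves separated RC from RN, so nothing is read from the sign. The ratio of Apln to Aplnr counts, between 36.2 and 112.3 in RC and between 27.8 and 38.1 in RN, did not separate the groups.

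Of the other apelin genes, Furin, which processes the apelin precursor, and Mme, a peptidase that cuts the mature peptide, overlapped between the groups. Their log2 fold changes were -0.07 and -0.11. Apela, the other ligand of this receptor, reached 4, 4 and 2 counts per RC library against 0, 1 and 1 per RN library and did not pass the filter. A count of 0 allows up to 3 counts, for counting error only, so nothing is read from it.

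Esm1, a proteoglycan secreted by endothelial cells, was at 113, 152 and 219 counts in RC and at 18, 27 and 42 counts in RN. On the CPM scale these were 6.34, 9.08 and 12.5 against 1.07, 1.44 and 2.35, without overlap. The fitted level in RN was 0.175 of that in RC, the largest change among the 10 genes in this fit (log2 fold change -2.52, SE 0.359). With group alone in the model its adjusted p was 0.0630 from edgeR, above the threshold. With the replicate number as a block, edgeR gave 0.0243 for Esm1 and 0.0172 for Apln, so 2 members were called lower, against 0.0334% of all tested genes.

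Angpt2, the endothelial angiopoietin that can oppose Angpt1, was at 53.8, 43.9 and 63.5 CPM in the RC mice and at 5.71, 11.7 and 18.1 CPM in the RN mice. RN replicate 1 was the lowest of the RN mice here, as it was for Apln and Esm1. The fitted level in RN was 0.221 of that in RC (log2 fold change -2.18, SE 0.352, edgeR adjusted p = 0.0696, and 0.0728 with the block). Without RN replicate 1 the log2 fold change of Angpt2 was -1.85 and its adjusted p from edgeR 0.0490, which passes the threshold. DESeq2's Wald test, the tool the study's methods name, called Apln, Esm1 and Angpt2 lower at the same thresholds, with adjusted p of 3.78e-13, 2.89e-08 and 0.000767, against 0.536% of the genes to which it gave an adjusted p. In annotation release GENCODE M21, Angpt2 lies within the span of Mcph1 but shares no exonic base with it. Mcph1 overlapped between the groups, with 9.79 ± 2.40 CPM for RC against 10.9 ± 0.740 for RN (SD over 3 mice).

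Angpt1, the Tie2 agonist, overlapped between the groups. It was at 13.1, 9.32 and 11.7 CPM in RC and at 12.2, 10.9 and 9.62 CPM in the RN mice (log2 fold change -0.06, SE 0.176). In GENCODE M21, 14.2% of its exonic bases are shared with Gm17473, and reads there cannot be told apart because the use of strand is not given in the sources used here. The balance of both angiopoietins within each library needs no scaling between mice. Angpt2 had 4.10, 4.71 and 5.44 counts per Angpt1 count in RC and 0.468, 1.07 and 1.88 in RN. The mean ratio was 4.75 ± 0.670 in RC and 1.14 ± 0.710 in RN (SD, n = 3 mice each), and in RN replicate 1 Angpt1 counts exceeded those of Angpt2.

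Tek, the receptor of both angiopoietins, was at 15.5, 14.2 and 16.2 CPM in RC and at 16.7, 15.7 and 13.9 CPM in RN. Its log2 fold change was 0.01 with an SE of 0.133, within the spread between mice. Tie1, the partner receptor without a well-established ligand of its own, was at 31.5, 26.4 and 27.0 CPM in RC and at 17.3, 21.0 and 19.6 CPM in RN. The groups did not overlap (log2 fold change -0.55, SE 0.127, edgeR adjusted p = 0.137). Within a library, Tie1 had 1.66 to 2.03 counts per Tek count in RC and 1.04 to 1.41 in RN, so the pair did not keep its proportion.

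**Figure D2:**
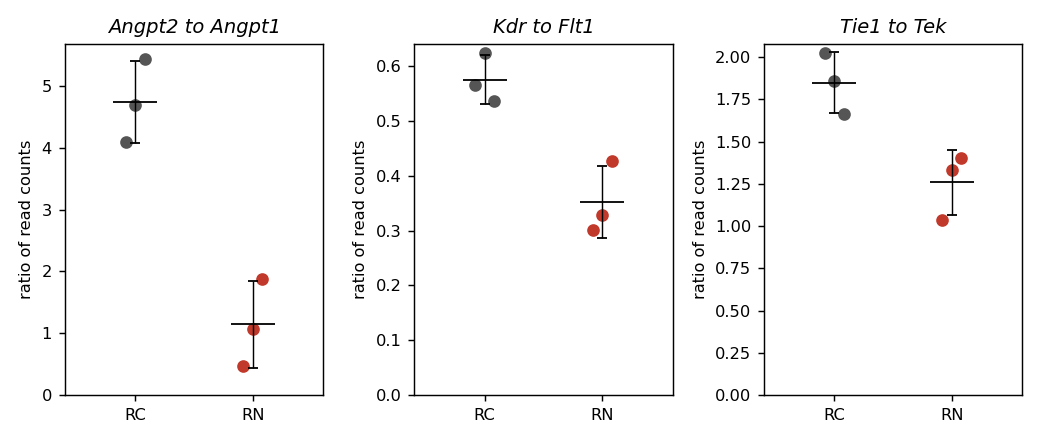
Ratio of read counts within each library for Angpt2 to Angpt1, Kdr to Flt1 and Tie1 to Tek in 3 RC (grey) and 3 RN (red) mice, with mean and SD in black and the axes starting at 0. In each panel the RN points lie below the RC points.

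Further genes of the angiopoietin system were Ptprb, a phosphatase that restrains Tie2, Dok2, an adaptor bound by Tie2, and Foxo1, a transcription factor upstream of Angpt2. Ptprb had 1238 to 1741 counts in RC and 1024 to 1317 in RN, which did not overlap after scaling (log2 fold change -0.36, edgeR adjusted p = 0.271). Foxo1 was at 0.01 with overlap. Dok2, with 8 to 28 counts in RC and 0, 17 and 20 in RN, overlapped, and Angpt4 did not pass the filter.

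Kdr, the main signalling receptor of VEGFA, had the smallest relative spread of the 10 genes in RC, at 47.3, 47.7 and 45.7 CPM. In RN it was at 22.3, 29.4 and 33.7 CPM, without overlap. The fitted level in RN was 0.607 of that in RC (log2 fold change -0.72, SE 0.147, edgeR adjusted p = 0.124). Flt1, the VEGF decoy receptor, was at 83.7, 76.6 and 85.3 CPM in RC and at 74.1, 89.5 and 79.1 CPM in the RN mice (log2 fold change -0.02, SE 0.0982), with overlap. Within a library, Kdr had 0.536 to 0.624 counts per Flt1 count in RC and 0.301 to 0.426 in RN. With DESeq2's Wald test Kdr and Tie1 passed on the adjusted p alone (0.00189 and 0.0207) but not on the fold change of at least 2.

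Vegfa, the ligand, was at 41.3, 48.7 and 59.8 CPM in RC and at 31.7, 31.2 and 43.6 CPM in RN. RN replicate 3 lay above RC replicate 1, so the groups overlapped (log2 fold change -0.49, SE 0.175, edgeR adjusted p = 0.309). At an unadjusted p under 0.05, 6 of the 10 genes were lower in RN, namely the 5 with separate groups and Vegfa, against 6.33% of all tested genes. Astrocytes are a main source of VEGFA in brain, and the astrocyte genes were also lower. Of 10 astrocyte genes, 8 had RN mice wholly below RC mice, against 8.12% of all tested genes, and 7 were lower at an unadjusted p under 0.05. Their summed level was 6289 to 7967 CPM in RC and 4321 to 5503 CPM in RN. Aldoc, Slc4a4 and Sox9 had log2 fold changes of -0.76, -0.46 and -0.52. Their part in the Vegfa value was not tested.

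Of the other VEGF genes, 6 of 7 were tested and none was called, with 1 lower and 1 higher at an unadjusted p under 0.05. Nrp2, a VEGF co-receptor also found on neurons, was higher in every RN mouse, at 1575 to 1688 counts against 815 to 1380 (log2 fold change 0.48, edgeR adjusted p = 0.334). Flt4, the receptor of VEGFC, had 171 to 205 counts in RC and 116 to 161 in RN (log2 fold change -0.43, edgeR adjusted p = 0.345). Vegfb was at -0.16 on the log2 scale. Over the 6 tested genes of this list the median log2 fold change was -0.19, beside 0.00372 for all tested genes and -0.61 for the 10 members.

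**Figure D3:**
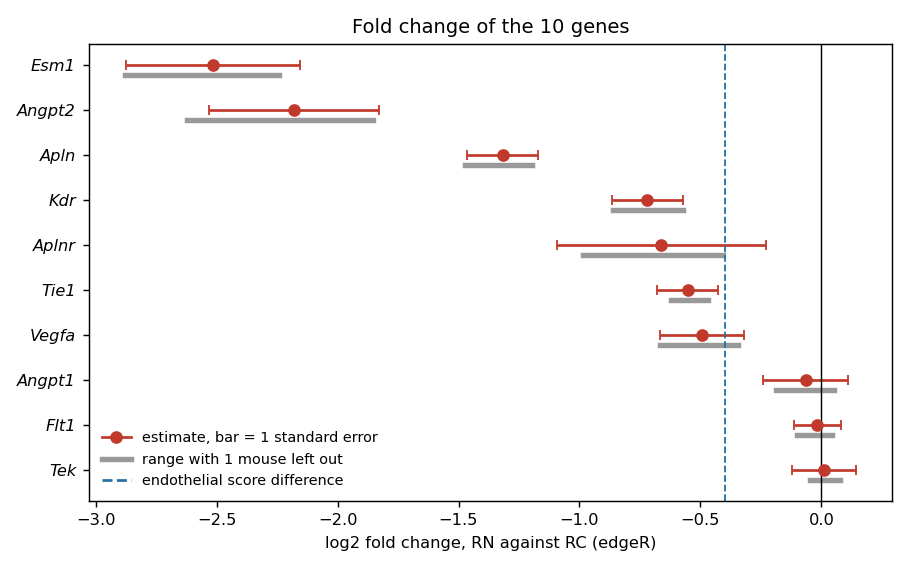
edgeR log2 fold change (RN against RC) of the 10 genes with 1 standard error (red), the range when each mouse is left out in turn (grey bar) and the difference in the endothelial score (dashed line, -0.40). Apln, Esm1 and Angpt2 lie far below the dashed line, and Tek, Flt1 and Angpt1 lie near 0.

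The level of endothelial transcripts differed between the groups as well, though not for every gene. A score was formed as the mean log2 CPM of 17 endothelial genes, none of them a member, each centred over the 6 mice. It was 0.38, 0.12 and 0.10 in the RC mice and -0.42, -0.03 and -0.15 in the RN mice, a difference of -0.40 without overlap (two-sided exact permutation test, p = 0.1, the smallest that 3 against 3 allow). Their summed level ran from 711.9 to 847.2 CPM in RC and from 503.2 to 670.8 CPM in RN. Of the 17, 6 had RN mice wholly below RC mice, against 8.12% of all tested genes, and 16 had a negative log2 fold change. In edgeR 9 of the 17 were lower at an unadjusted p under 0.05, against 6.33% of all tested genes. Pecam1, Robo4 and Eng, all surface proteins of endothelial cells, had log2 fold changes of -0.70, -0.80 and -0.80 (adjusted p of 0.122, 0.135 and 0.161 from edgeR). These were the genes of smallest p in the list. The genes that overlapped between the groups ran from -0.65 (Emcn) to 0.06 (Itm2a). Among them Erg and Ly6c1 were at -0.53 and -0.40, and Cldn5, Vwf and Abcb1a at -0.22, -0.16 and -0.10. These overlapping genes were picked after their values were seen.

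With the endothelial score subtracted in each mouse, Apln was lower in RN by a difference of -0.93 on the log2 scale, Angpt2 by -1.91 and Esm1 by -2.06, each without overlap. The remaining difference was -0.15 for Tie1 and -0.34 for Kdr, the latter with overlap. Flt1 and Tek, whose groups overlapped before, were higher relative to the score by 0.38 and 0.41 without overlap, and Angpt1 by 0.34 with overlap. With the score as a covariate in edgeR the log2 fold changes were -1.20 for Apln, -1.55 for Angpt2 and -2.71 for Esm1. No member was called in that fit, which has 3 residual degrees of freedom (3 of the 10 lower at an unadjusted p under 0.05, against 2.13% of all tested genes).

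Mural cells, the pericytes and smooth muscle cells around vessels, overlapped between the groups. The mural score differed by 0.01 between the groups (exact permutation test, p = 1), with summed levels of 428.5 to 467.3 CPM in RC and 397.4 to 525.2 CPM in RN. Of its 12 genes, Anpep, a peptidase of pericytes and also of myeloid cells, was higher in every RN mouse (log2 fold change 1.16). Its edgeR adjusted p was 0.0661, and 0.0378 with the block. DESeq2's Wald test called it higher (adjusted p = 3.51e-07). Rgs5 and Cspg4 were at -0.31 and -0.22 with overlap. The fibroblast genes, 7 of 7 tested, overlapped in every case, as did 8 of 9 genes of microglia and macrophages and all 5 neuronal genes. The ninth, Cd68, a lysosomal protein of phagocytes, was at 113.0, 140.7 and 121.6 CPM in RC replicates 1 to 3 and at 143.4, 235.6 and 191.0 CPM in RN replicates 1 to 3 (log2 fold change 0.60, SE 0.174, adjusted p = 0.208 in edgeR and 0.0246 in DESeq2).

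The choroid plexus genes were also at lower levels in RN, with 8 of 12 wholly below RC, against 8.12% of all tested genes. Without a covariate, 11 of the 12 were lower at an unadjusted p under 0.05, against 6.33% of all tested genes. RC replicate 3 had the lowest choroid plexus score of the RC mice (-0.71, against 1.71 and 3.02). It also had their highest score of the thalamic genes (0.83, against 0.16 and -0.32), which ran from -0.79 to 0.18 in RN. In RC replicate 3 Apln, Esm1, Angpt2 and Vegfa were at their highest, and Kdr and Aplnr were at their lowest among the RC mice. Kdr followed the order of the choroid plexus score over all 3, within 45.7 to 47.7 CPM. Apln, Angpt2, Tek and Flt1 ran in the reverse order over all 3, which is the order of the thalamic score. Apln was nearly level between RC replicates 1 and 2, at 117.8 and 117.6 CPM. What lay behind these orders was not tested. With that score as a covariate in edgeR the log2 fold changes were -1.48 for Apln, -2.86 for Esm1 and -2.45 for Angpt2. No member was called in that fit either (6 of 10 lower at an unadjusted p under 0.05, against 4.3% of all tested genes, and an edgeR adjusted p of 0.109 for Apln).

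**Figure D4:**
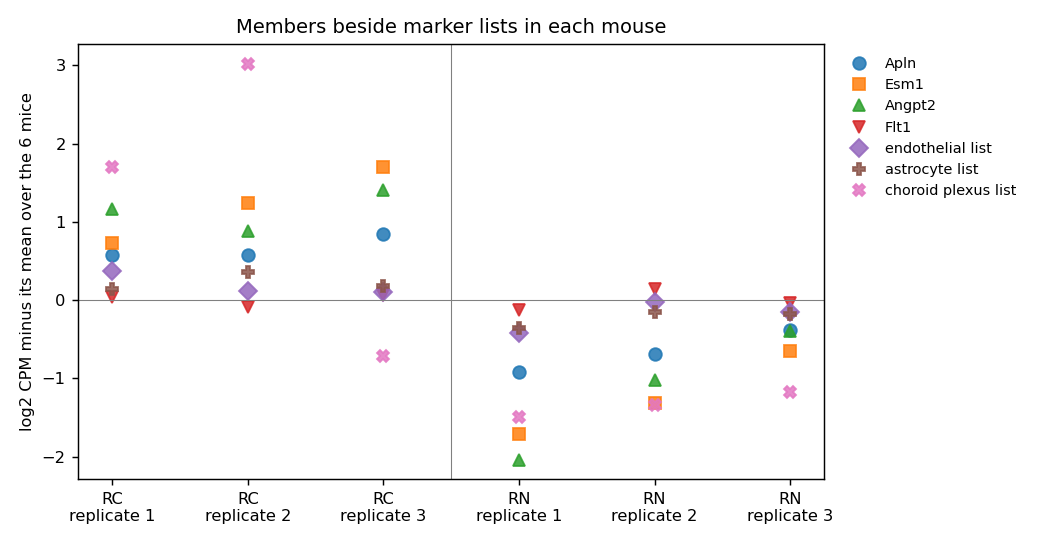
Log2 CPM minus its mean over the 6 mice for Apln, Esm1, Angpt2 and Flt1, and the mean of the same quantity for the endothelial, astrocyte and choroid plexus lists, in each mouse. In RC replicate 3 the choroid plexus list is at -0.71 while Apln, Esm1 and Angpt2 are at their highest.

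The members were put in order of level per length, as CPM per kilobase of the exonic length in GENCODE M21. The ratios of counts given above were not divided by length. In RC the order of mean levels was Apln (39.9 ± 4.37), Angpt2 (14.6 ± 2.66), Vegfa (11.7 ± 2.17), Flt1 (6.06 ± 0.344), Tie1 (5.75 ± 0.563), Kdr (5.20 ± 0.118), Esm1 (4.45 ± 1.48), Tek (3.25 ± 0.215), Angpt1 (2.19 ± 0.369) and Aplnr (0.665 ± 0.286) (SD, n = 3 mice). Among neighbours in that order, Angpt2 and Vegfa, Flt1 and Tie1, Kdr and Esm1, and Esm1 and Tek had overlapping ranges. In RN, Apln was still first at 16.0 ± 3.05, followed by Vegfa (8.28 ± 1.63) and Flt1 (5.99 ± 0.579). Angpt2 went from position 2 to 6, at 3.21 ± 1.68, where its range overlapped with those of Tek and Kdr. Esm1 went from position 7 to 9, at 0.773 ± 0.313, overlapping with Aplnr.

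Further tip-cell genes were looked at as a list of 22, of which 21 were tested. None was called by edgeR, 8 had RN mice wholly below RC mice and 1 wholly above, and 8 were lower and 2 higher at an unadjusted p under 0.05. The median log2 fold change was -0.21. Cd34, a sialomucin of endothelial cells, Adm, a vasoactive peptide induced by low oxygen, and Nid2, a basement membrane protein, had the smallest p. Nid2 was at 199 to 389 counts in RC and 65 to 161 in RN (log2 fold change -1.27, edgeR adjusted p = 0.193 and 0.00895 from DESeq2). Adm was at 127 to 179 counts in RC and 53 to 107 in RN (log2 fold change -1.07, edgeR adjusted p = 0.151 and 0.0155 from DESeq2). Cd34 was at -0.71 (edgeR adjusted p = 0.129). DESeq2 called Nid2 and Adm lower and no other gene of the 6 pathway lists.

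The list did not move as one. The log2 fold changes of its genes that overlapped between the groups ran from -0.44 (Lamb1) to 0.51 (Plaur). Cxcr4, Pdgfb, Unc5b, Mcam and Plvap lay from -0.30 to 0.14 among them. Trp53i11 was higher in every RN mouse, at 0.44, while Ramp3, Col4a1 and Col4a2 were lower in every RN mouse, at -1.03, -0.74 and -0.74. These genes were picked after their values were seen. Dll4, the Notch ligand of tip cells, was also looked at outside the naming rule and had 106 to 170 counts in RC and 59 to 104 in RN (log2 fold change -0.74, edgeR adjusted p = 0.324).

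Notch signalling restrains sprouting in the stalk cells behind the tip. Of its 6 genes none was called, 2 were wholly lower and 2 wholly higher in RN (2 lower and 1 higher at an unadjusted p under 0.05), and the median log2 fold change was -0.02. Hey1, a Notch target, had 971 to 1121 counts in RC and 643 to 842 in RN (log2 fold change -0.48, edgeR adjusted p = 0.137). Heyl, a Notch target of mural cells, had 173 to 232 counts in RC and 297 to 450 in RN (log2 fold change 0.80, edgeR adjusted p = 0.141). Notch4, an endothelial Notch receptor, was at -0.57 without overlap.

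Low oxygen raises Vegfa, and 16 genes of the hypoxia response were set beside it. None was called, 5 were wholly lower in RN and none wholly higher, 5 were lower and 0 higher at an unadjusted p under 0.05, and the median log2 fold change was -0.16. Epas1, which encodes the oxygen-regulated factor HIF-2α and is high in endothelial cells, was at -0.40 (edgeR adjusted p = 0.141). Slc2a1, the glucose transporter of the blood-brain barrier, and Bnip3, a mitochondrial protein, were at -0.37 and -0.27. The glycolytic targets Ldha and Pgk1 overlapped, at 0.05 and -0.17. Car9, with 47 to 76 counts in RC and 24 to 41 in RN, had the lowest value of the list, at -0.76 without overlap. Egln1 was at -0.24, also without overlap. Ldha, Pgk1, Car9 and Egln1 were named after their values were seen.

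**Figure D5:**
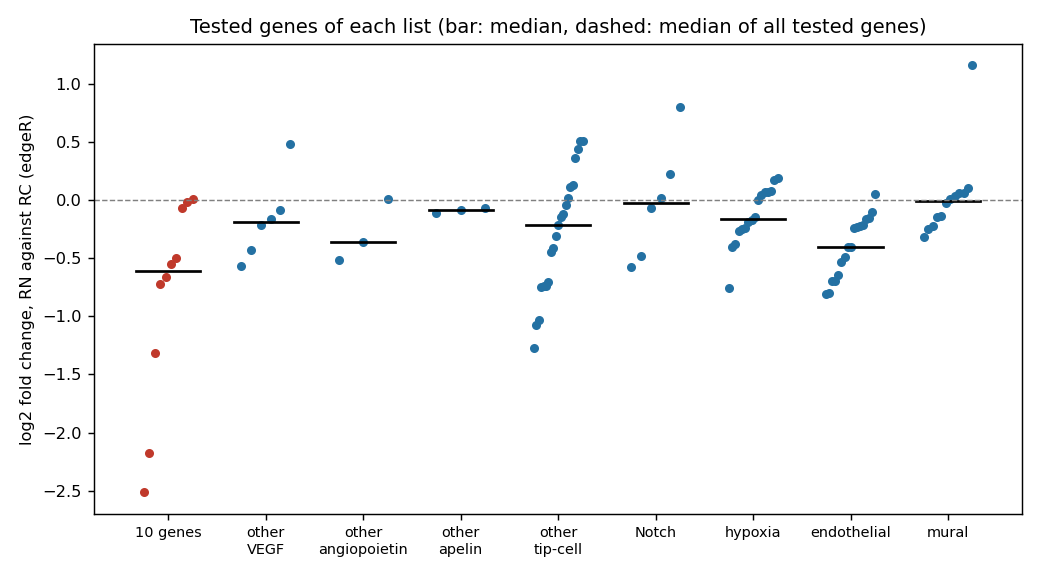
edgeR log2 fold change (RN against RC) of every tested gene in each list, with the list's median (black bar) and the median of all tested genes (dashed line, 0.00372). The members reach from -2.52 to 0.01, the endothelial list has a median of -0.40 and the mural list one of -0.01.

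Genes whose course over the 6 mice was most like that of a member were found among 14316 other genes of at least 1 CPM, by the root mean square difference of log2 CPM centred over the mice. For Apln these were Dnah6 (0.13), Cfap161 (0.14), Lcat (0.15), Exoc3l4 (0.16) and Adm (0.19). For Angpt2 they were Cxcl5 (0.32), Myct1 (0.39), Gm2004 (0.43), Prnd (0.49) and Cldn19 (0.50). For Esm1 they were Cxcl5 (0.38), Myct1 (0.52), Pifo (0.57), Rd3 (0.60) and Gm2004 (0.65). By the same measure Esm1 and Angpt2 were 0.34 apart, closer than Esm1 was to any of its 5 nearest other genes. Angpt2, however, was closer to Cxcl5 than to Esm1. Apln was 0.60 from Angpt2 and 0.62 from Esm1. The values share libraries, scaling and group difference, and are a description.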

How the data were processed

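The files the authors deposited give whole, unnormalized counts of reads for each gene in each mouse. Per the labels, the submitters' processing notes list fastp 0.18.0, FastQC, HISAT2, RSEM 1.2.19 and the build GRCm39, with no roles. RSEM yields estimated counts, and whether the deposited counts are rounded estimates is not stated. The annotation, the handling of shared reads and the use of strand are not given in the sources used here. GENCODE M21 and the RefSeq promoters are on GRCm38, so they served only for exonic length, overlaps and the sequences shown.

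Counts were analysed with edgeR 4.0.16 (R 4.3.3), which applied filterByExpr (minimum count 10), TMM and the quasi-likelihood test (legacy option) on group alone, with adjustment over 14956 genes. Log2 CPM used a prior count of 2. On simulated counts with 200 genes changed 4-fold in RN against RC, edgeR found 94.5% of these among 14829 genes, with 2.58% false calls. These counts were drawn independently for each gene, without variation that genes share between mice. The simulation checks the code, and its rates do not carry over to these data. In the real counts Esm1 and Angpt2, at 0.175 and 0.221 of RC, were not called. DESeq2 1.42.0 was an alternative. The members and gene lists were chosen with earlier results of these data known. All 10 members are named, with up to 3 genes of smallest p per list and the 5 nearest genes of Apln, Esm1 and Angpt2. 1 gene that this rule names is not reported here. Nothing in the labels says how the mice relate beyond their group, so p-values measure the spread between these samples.

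RC and RN mice share replicate numbers. Same-numbered mice deviated together from their group means, with correlations across genes of 0.173, 0.120 and 0.209. The numbers were therefore also fitted as a block, on a hint from the data and not from the design. Per the study's methods the mice were divided into groups randomly, and no label gives a pairing. The block leaves 2 residual degrees of freedom. RC replicate 1 and RN replicate 2, which differ in number, also correlated at 0.156, above the 0.120 of the mice numbered 2. The hint is therefore weak, and the calls with the block rest on it. Between libraries, chi-square divided by its degrees of freedom was 16.4 to 44.5, far above sampling noise, and no library was merged with another.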

Additional observations from a re-analysis of the deposited data

How the results depend on the processing

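The 9 negative log2 fold changes of members include 6 (Apln, Esm1, Angpt2, Kdr, Tie1, Vegfa) that stayed negative in every setting run. The number of members called lower, 1 in the reported fit, was 3 with DESeq2's Wald test, 3 without a filter on low counts, 2 with the replicate block and 0 with the endothelial or the choroid plexus score as a covariate, and 0 to 2 with 1 mouse left out. None was called higher in any setting. Over all genes, 9 were called higher and 2 lower. These counts were 99 and 87 with DESeq2, 36 and 7 without a filter, and 17 and 5 with the block. With the endothelial score 6 were higher and 0 lower (663 and 318 at an unadjusted p under 0.05, beside 814 and 947 without it). With the choroid plexus score 0 were higher and 1 lower (734 and 643 unadjusted). With 1 mouse left out, 3 to 26 were higher and 0 to 18 lower. The other pathway lists had 0 calls in edgeR and 2 lower with DESeq2.

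Some log2 fold changes changed sign, and the cause was not tested. Aplnr, at -0.66 as reported, was at 0.0168 (SE 0.753) with the endothelial and 0.38 (SE 0.615) with the choroid plexus score. Tek was at -0.0646 and -0.13 with these scores, and Flt1 at 0.16 with the endothelial score. With 1 mouse left out, Angpt1 ran from -0.19 to 0.0505, Tek from -0.0476 to 0.0791, Flt1 from -0.10 to 0.0428 and the mural score from -0.13 to 0.11. The endothelial score difference stayed between -0.48 and -0.29. The block changed no other call of a member than that of Esm1, and the paired score difference had an exact sign-flip p of 0.25, the smallest that 3 pairs allow. With DESeq2's size factors in edgeR, with at least 10 counts in every mouse and without the legacy option, Apln was again the only member called. Depth is lowest for Aplnr (20 to 58 counts per library) and for Esm1 in RN (18 to 42).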
